A study of Mus musculus with 16 samples.

Results

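Macrophages of the mouse Hoxb8 line that had been given no apoptotic cells were profiled in 4 RNA sequencing libraries, the columns headed as macrophages alone, out of 16 libraries in the series. The other 12 libraries came from the same line after 45, 90 or 180 min with apoptotic Jurkat cells, which are human leukaemic T cells, with 4 libraries at each time. They were set aside, and no value here compares macrophages alone with them. All groups share the line and its bone marrow origin, and the labels of macrophages alone record no added agent, no harvest time and no differentiation schedule. Nor do they say whether the line is 1 clone or whether its 4 libraries came from separate cultures, so the spread given with each value may be technical.

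Macrophages are phagocytes that clear dying cells, microbes and debris. Their identity rests on the receptor for macrophage colony-stimulating factor, encoded by Csf1r, and on the transcription factor PU.1, encoded by Spi1. Lines named for Hoxb8 start from bone marrow progenitors in which this homeobox factor blocks maturation, and once its activity is withdrawn the cells mature into phagocytes. In many such lines the factor is fused to the hormone-binding part of the oestrogen receptor, but the labels do not say which construct was used here.

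Library totals were 27.7, 25.6, 26.7 and 18.7 M counts (M, 1000000) in libraries 1 to 4, which are names in file order. Values are given as CPM, the count of a gene for every 1000000 counts of its library. A gene is termed expressed at 1 CPM or more in each of the 4 libraries, and undetected under 0.1 CPM in all 4. Of all 21928 protein-coding genes, 46.4% were expressed and 40.3% undetected, and counts within the gene lists below stand against these shares. Over the group, 98.6 M counts were summed, so a gene with no count could still lie at up to 0.0304 CPM (3 counts of the total, a one-sided limit for counting error only). The libraries resembled each other closely: pairwise Pearson correlations of log2(CPM + 1) across genes lay between 0.995 and 0.996, and the common biological coefficient of variation by edgeR was 6.25%. Among the 7947 protein-coding genes averaging at least 10 CPM, the highest library exceeded the lowest by a median of 1.13 times. No such gene reached 2 times, and the widest was Miga2, a mitochondrial fusion gene, with 16.1, 10.6, 9.55 and 9.21 CPM.

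Markers of macrophages were counted at high levels in every library. Csf1r (ENSMUSG00000024621) had 925, 886, 918 and 898 CPM. Cd68 (ENSMUSG00000018774), a lysosomal glycoprotein of phagocytes, had 822, 773, 829 and 778 CPM. Adgre1 (ENSMUSG00000004730), which encodes the F4/80 antigen, had 1847, 1832, 1897 and 1848 CPM, and Spi1 (ENSMUSG00000002111) had 278, 256, 261 and 271 CPM. For each of these markers all 4 libraries lay within a narrow band. All 16 genes of the macrophage marker list were expressed, with a median of 439 CPM, against 46.4% of all 21928 protein-coding genes expressed and a median of 0.475 CPM over all of them. The list was chosen with earlier results of these data known, so this count is no independent test of identity. In bulk RNA, fewer cells of a type and less RNA per cell cannot be told apart, so these levels describe the culture and not each cell.

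Hoxb8 itself (ENSMUSG00000056648) was counted at 32.3, 26.5, 27.6 and 24.4 CPM (27.7 ± 3.35, SD, n = 4), highest in library 1 and lowest in library 4. HOX factors set position along the body axis and several of them sustain blood progenitors. Of 39 HOX genes, 4 were expressed and 33 stayed under 0.1 CPM, 29 of them with no count at all. Other expressed members included Hoxb4 at 6.30 ± 1.12 CPM and Hoxb3 at 2.10 ± 0.646 CPM (SD, n = 4). Per kilobase of exon, Hoxb8 lay above Hoxb4, another gene of the same cluster, in each of the 4 libraries. Hoxa9, which also maintains progenitors, had 0 counts. The files do not separate the gene's own transcript from one made by an introduced construct. Esr1, the oestrogen receptor gene, had 8.32, 8.79, 10.5 and 10.1 CPM, and reads of the receptor and of a fusion carrying part of it were likewise not separable.

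A small number of genes took a large part of the counts. Genes expressed in every library numbered 11111 of 55416 listed, of which 10174 were protein-coding, and the median expressed protein-coding gene stood at 32.7 CPM. Only 89 protein-coding genes reached 1000 CPM on average, and they took 20.9% of all counts. Another 2058 genes between 100 and 1000 CPM took 48.1%, and 5800 genes between 10 and 100 CPM took 23.1%. The 100 most abundant genes of any class held 27.1 ± 0.110% of counts (SD, n = 4).

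Ribosomal RNA had been depleted before library preparation. The mitochondrial large ribosomal RNA mt-Rnr2 still took the most counts, at 32932, 36100, 32129 and 34573 CPM. Both mitochondrial ribosomal RNAs together made up 4.23 ± 0.217% of counts (SD, n = 4). Malat1, a long nuclear RNA, had 10276, 11972, 9905 and 10909 CPM, highest in library 2. Nuclear protein-coding genes held 93.1 ± 0.356% of counts, and genes annotated as long intergenic noncoding held 1.39 ± 0.104%.

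**Figure D1:**
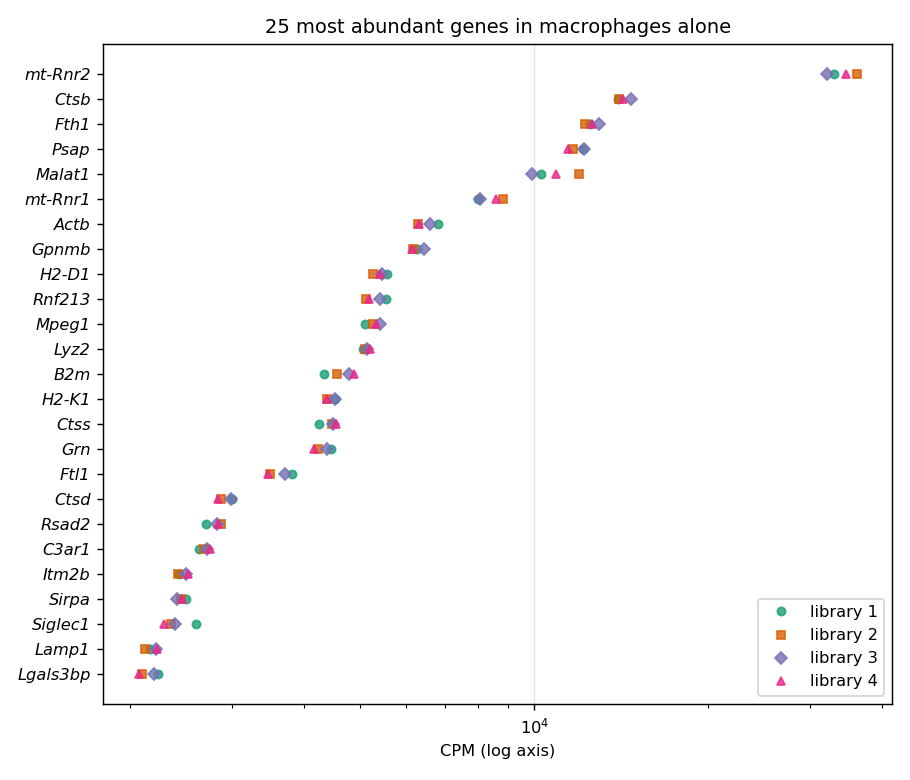
CPM (log axis) of the 25 genes with the highest mean in macrophages alone, 1 row per gene and 1 marker per library. The libraries overlap closely within each row. The mitochondrial ribosomal RNA mt-Rnr2 stands apart at 32129 to 36100 CPM, and Ctsb, Fth1, Psap and Malat1 form the next group between 9905 and 14718 CPM.

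Lysosomal genes were among the most highly counted. Ctsb, the lysosomal protease cathepsin B, took more counts than any other protein-coding gene, with 13938, 13996, 14718 and 14234 CPM. Psap, the precursor of the saposins that help degrade sphingolipids, had 12122, 11656, 12203 and 11436 CPM. Neither gene had a library that stood apart. Of 35 lysosomal genes, 33 were expressed, and together they made up 5.49%, 5.43%, 5.64% and 5.46% of counts in libraries 1 to 4. Their median was 372 CPM, against 0.475 CPM over all protein-coding genes. Grn, the progranulin gene, averaged 4302 ± 135 CPM, Ctss, cathepsin S, 4431 ± 133 CPM, Ctsd, cathepsin D, 2922 ± 83.9 CPM, and the membrane protein gene Lamp1 2182 ± 49.8 CPM (SD, n = 4). Cathepsin W (Ctsw), a protease of cytotoxic lymphocytes, was the 1 member under 0.1 CPM, with 0 counts. Tfeb and Tfe3, which drive transcription of lysosomal genes, averaged 20.9 ± 2.47 and 134 ± 4.58 CPM (SD, n = 4).

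The element bound by Tfeb and Tfe3 was looked for in promoters as the letters TCACGTG on either strand, within 250 bases before the RefSeq start (mouse build GRCm38.p6). It was found in 7 of 27 lysosomal genes with a promoter entry (25.9%), against 968 of 27025 genes (3.58%). The palindromic TCACGTGA holds the letters on both strands and so counts as overlapping matches. In 3 of these promoters, shown because they belong to highly counted lysosomal genes, the element is in capitals in a stretch of 120 bases written 5′ to 3′ on the gene's strand. They are Ctsd at chr7:142387863-142387982 (minus strand), the proton pump subunit gene Atp6v1a at chr16:44139328-44139447 (minus strand) and Ctsa, cathepsin A, at chr2:164833653-164833772 (plus strand). A match describes the letters only, and binding was not measured.
Ctsd: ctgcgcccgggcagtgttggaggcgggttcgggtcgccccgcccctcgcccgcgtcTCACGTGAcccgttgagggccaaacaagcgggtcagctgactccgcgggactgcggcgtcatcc
Atp6v1a: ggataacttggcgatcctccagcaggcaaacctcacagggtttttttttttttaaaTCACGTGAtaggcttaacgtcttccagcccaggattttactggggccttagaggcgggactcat
Ctsa: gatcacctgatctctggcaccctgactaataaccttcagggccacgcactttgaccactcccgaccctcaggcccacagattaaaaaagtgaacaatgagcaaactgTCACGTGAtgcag

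Genes of iron storage and antigen presentation were also counted at high levels. Fth1, the ferritin heavy chain, had 12502, 12258, 12941 and 12563 CPM, and its light chain Ftl1 3815, 3487, 3705 and 3463 CPM. Hmox1, which releases iron from haem, averaged 756 ± 19.5 CPM, and the phagosomal metal transporter Slc11a1 877 ± 41.4 CPM (SD, n = 4). The iron exporter Slc40a1 was counted at 30.3 ± 3.0 CPM, and hepcidin (Hamp), the liver hormone that blocks this exporter, at 0. Among genes of the phagocyte oxidase, which makes superoxide, Cybb had 874, 918, 916 and 932 CPM. In all, 13 of 14 iron and oxidase genes were expressed. For class I antigen presentation, B2m, the invariant light chain, had 4330, 4555, 4790 and 4882 CPM, lowest in library 1. The heavy chains H2-D1 and H2-K1 averaged 5418 ± 124 and 4450 ± 90.3 CPM (SD, n = 4), and because they are close in sequence their shares are uncertain.

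Levels can be ranked between genes only after division by length. Per kilobase of merged exon, B2m came highest among protein-coding genes at 5395 ± 288 CPM per kb, followed by Psap at 4320 ± 134, Lyz2, the macrophage lysozyme, at 3890 ± 45.2, and Fth1 at 3622 ± 81.5 CPM per kb (SD, n = 4). Each of these genes lay above the next in 4 of 4 libraries. With the median length of coding transcripts in place of merged exons, Fth1 moved to the top at 13526 CPM per kb, so its place depends on the length used. Of the 30 highest genes per kilobase, 23 were the same under either length. The 30 highest by CPM and the 30 highest per kilobase shared 20 genes.

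Surface receptors were counted family by family. Pattern recognition receptors were expressed in 24 of 27 genes and immunoreceptors, the paired activating and inhibitory receptors of myeloid cells, in 27 of 34. Apoptotic cell receptors and their bridging molecules were expressed in 19 of 25 genes, cytokine receptors in 29 of 40 and chemoattractant receptors in 11 of 28. The list named for MHC class II and costimulation, which also holds the class I gene B2m, was expressed in 12 of 16. That count does not reflect the class II genes themselves, which were almost uncounted, as described below. For protein-coding genes as a whole the share was 46.4%.

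**Figure D2:**
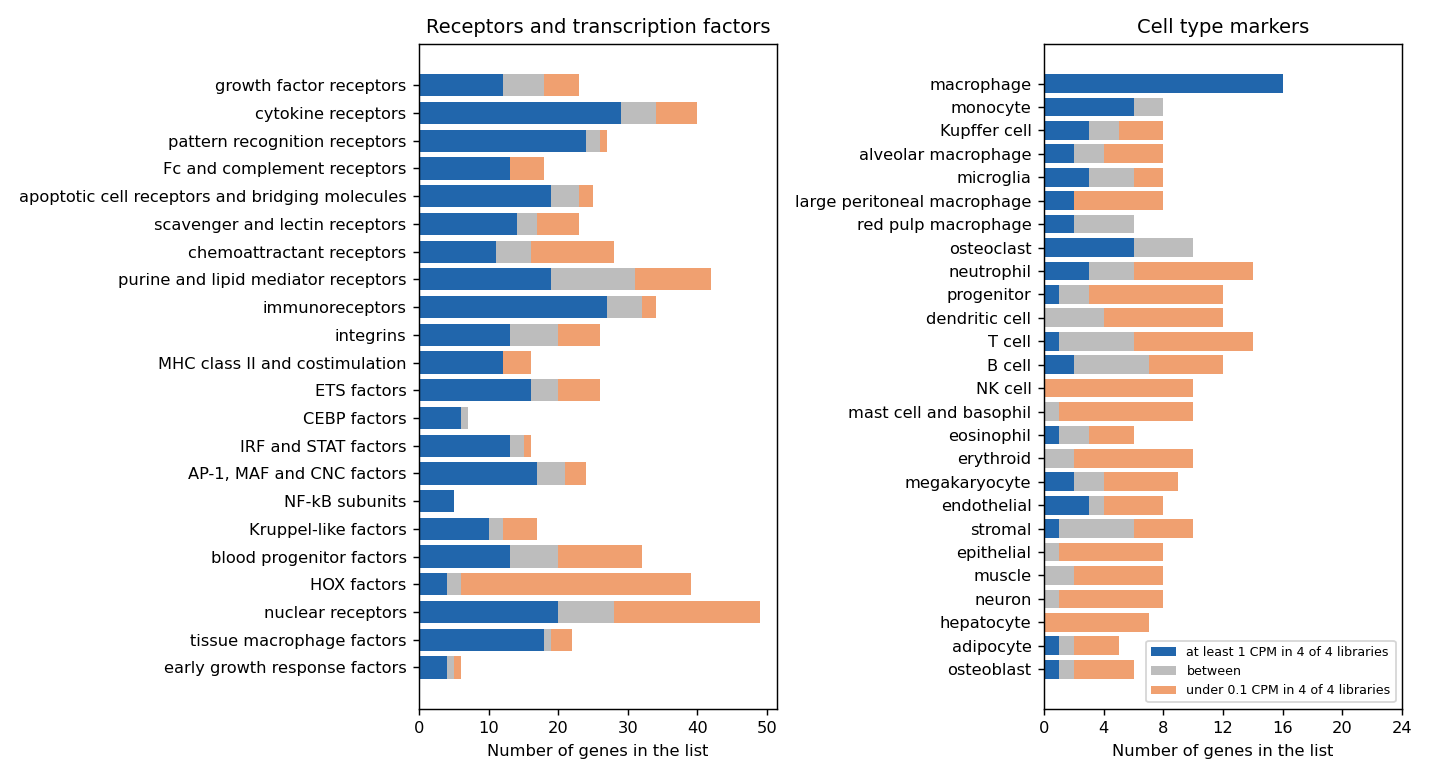
Number of genes in each list (horizontal axis) at 1 CPM or more in 4 of 4 libraries (blue), under 0.1 CPM in 4 of 4 (orange) and between (grey). Receptor and transcription factor lists are on the left and cell type marker lists on the right. All 16 macrophage markers are blue, whereas the bars of the NK cell and hepatocyte lists are wholly orange.

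Receptors for growth factors were led by Csf1r, at 157 ± 3.12 CPM per kb (SD, n = 4). Of 23 such genes 12 were expressed, near the 46.4% of all protein-coding genes. The beta chains shared by the receptors for GM-CSF, interleukin-3 and interleukin-5 were also well counted. Csf2rb2 had 454, 438, 460 and 415 CPM and Csf2rb 358, 370, 382 and 340 CPM, although the 2 genes are near-identical copies and the split between them is uncertain. The GM-CSF alpha chain Csf2ra averaged 139 ± 10.1 CPM and the G-CSF receptor Csf3r, a receptor of granulocytes, 90.4 ± 6.41 CPM (SD, n = 4). Kit and Flt3, receptors of immature progenitors, had 0 counts.

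Cytokine receptors were headed by Tnfrsf1b, a receptor for tumour necrosis factor, with 1130, 1067, 1129 and 1065 CPM. Tnfrsf1a, which carries the death domain, averaged 175 ± 7.63 CPM and lay below Tnfrsf1b per kilobase in 4 of 4 libraries. Il7r, the interleukin-7 receptor chain best known from lymphocytes, had 448, 481, 511 and 489 CPM, with no library far from the rest. Its partner chain Il2rg averaged 95.7 CPM. Il4ra, through which interleukin-4 acts, averaged 230 ± 6.12 CPM, and Il10ra, the receptor for interleukin-10, 134 ± 2.85 CPM (SD, n = 4). The receptor chains for type I interferon, Ifnar1 and Ifnar2, averaged 168 ± 6.21 and 91.8 ± 1.16 CPM, and Ifngr1, for interferon gamma, 108 ± 2.17 CPM (SD, n = 4). Il18r1, Il1rl1, Il2rb and Il27ra had 0 counts.

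Among receptors for microbial products, those that sense nucleic acids from within endosomes were all expressed. Tlr13, which binds bacterial ribosomal RNA, had 737, 808, 759 and 791 CPM, and Tlr7, which binds single-stranded RNA, had 435, 459, 472 and 517 CPM. Per kilobase, Tlr13 lay above Tlr7 and Tlr7 above Tlr8 in each library. Tlr8 averaged 282 ± 11.5 CPM, Tlr9, a sensor of DNA, 167 ± 10.1 CPM, and Tlr3, a sensor of double-stranded RNA, 134 ± 6.69 CPM (SD, n = 4). Unc93b1, the chaperone that carries these receptors to endosomes, averaged 609 ± 27.9 CPM.

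At the cell surface, Tlr4, the receptor for bacterial lipopolysaccharide, had 271, 292, 299 and 312 CPM, lowest in library 1 and highest in library 4. Its helpers Cd14 and Ly96 averaged 135 ± 5.33 and 17.9 ± 2.98 CPM (SD, n = 4). Tlr2, which binds bacterial lipopeptides, averaged 42.4 ± 2.56 CPM and lay below Tlr4 per kilobase in 4 of 4 libraries. Cd180, a Toll-like protein that partners with Ly86, averaged 1029 ± 27.2 CPM, whereas Ly86 averaged 1.56 ± 0.291 CPM (SD, n = 4). The lectin Clec4d averaged 578 ± 7.85 CPM. Its order against Cd180 per kilobase turned round between the length measures. Tlr5, for flagellin, averaged 0.894 CPM, Tlr11 0.375 CPM, and Tlr12 had 0 counts.

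C3ar1, the receptor for the complement fragment C3a, had 2630, 2679, 2710 and 2753 CPM, a narrow range, and lay above C5ar1, the C5a receptor, per kilobase in 4 of 4 libraries. C5ar1 averaged 302 ± 9.08 CPM. Fcgr1, the high-affinity receptor for immunoglobulin G, had 1492, 1449, 1483 and 1443 CPM. Per kilobase, the order Fcgr1, Fcgr4, Fcgr3 and Fcgr2b, the inhibitory member, held in each of the 4 libraries under both length measures. Fcer1g, the signalling chain shared by these receptors other than Fcgr2b, averaged 487 ± 17 CPM. The integrin chains of complement receptor 3, Itgb2 and Itgam, averaged 521 ± 11.9 and 117 ± 2.67 CPM (SD, n = 4), and Itgax, the CD11c chain, 3.56 ± 0.609 CPM. Of 18 genes in the list, 13 were expressed and 5 stayed under 0.1 CPM. Those 5, Fcer1a, Ms4a2, Cr2, Fcer2a and Vsig4, all had 0 counts.

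Receptors and bridging molecules for apoptotic cells were expressed in 19 of 25 genes before any such cells were given. Cd36, a scavenger receptor that also takes up oxidised lipid, had 1986, 2177, 2134 and 2287 CPM, lowest in library 1. Lrp1, a large endocytic receptor, had 1419, 1255, 1269 and 1252 CPM, with library 1 above the others. Of the 3 TAM kinases, which bind phosphatidylserine through the bridging proteins Gas6 and Pros1, Mertk had 89.8, 86.7, 88.2 and 85.5 CPM and Axl had 24.7, 26.3, 27.4 and 24.7 CPM. Tyro3 was seen in 3 counts over the group, in libraries 3 and 4. Per kilobase, Mertk lay above Axl and below Cd36 in 4 of 4 libraries. Gas6 averaged 28.5 ± 1.10 CPM, Pros1 1.86 ± 0.566 CPM, and Mfge8, which bridges to integrins, 34.4 ± 1.39 CPM (SD, n = 4).

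Other members of this list were Itgav at 341 ± 12.1 CPM, the alpha chain used with Mfge8, Stab1 at 294 ± 18.1 CPM, and the phospholipid receptors Cd300lf at 249 ± 12 CPM and Cd300lb at 147 ± 3.65 CPM (SD, n = 4). Trem2, a lipid receptor, averaged 233 ± 4.64 CPM and its signalling partner Tyrobp 277 ± 7.76 CPM. Timd4 and Havcr1, both TIM-family receptors for phosphatidylserine, had 0 counts. Engulfment machinery was expressed in 27 of 30 genes, among them Rac2 at 596 ± 20.6 CPM and Dock2 at 478 ± 23.6 CPM, a small GTPase of blood cells and its activator, and Actr3, a core subunit of the actin-branching complex, at 1039 ± 49.3 CPM (SD, n = 4). Gulp1, an adaptor of the engulfment pathway, had 0 counts.

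Scavenger and lectin receptors were expressed in 14 of 23 genes. Siglec1, which binds sialic acid, had 2596, 2356, 2394 and 2290 CPM, highest in library 1. Msr1 and Colec12, scavenger receptors for modified lipoproteins, averaged 576 ± 19.0 and 542 ± 13.7 CPM, and Marco, which binds bacteria and particles, 116 ± 3.49 CPM (SD, n = 4). Mrc1, the mannose receptor, averaged 47.4 ± 1.99 CPM. Cd163, the haemoglobin receptor, was near the limit of detection at 0.579, 0.0391, 0.187 and 0.375 CPM, from 29 counts in all.

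Of 28 chemoattractant receptors, 12 lay under 0.1 CPM, a share close to the 40.3% of all protein-coding genes. Ptafr, the receptor for platelet-activating factor, had 338, 356, 350 and 353 CPM. Fpr1 and Fpr2, which bind formylated bacterial peptides, averaged 181 ± 5.58 and 88.1 ± 5.15 CPM, and Fpr1 lay above Ptafr per kilobase in 4 of 4 libraries. Of the chemokine receptors, Ccr1 averaged 138 ± 8.48 CPM, Ccr2, which draws monocytes from the marrow, 42.4 ± 3.70 CPM, and Cx3cr1 19.3 ± 0.424 CPM (SD, n = 4). Ccr7, which guides dendritic cells to lymph nodes, had 0 counts. Ccr3, best known from eosinophils, was counted at 33.6 ± 3.39 CPM.

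Purine and lipid mediator receptors were expressed in 19 of 42 genes, near the 46.4% of all protein-coding genes. P2rx4, an ATP-gated channel, averaged 659 ± 20.05 CPM, S1pr2, a receptor for sphingosine 1-phosphate, 241 ± 6.67 CPM, and P2ry6, which responds to UDP, 97.0 ± 5.10 CPM (SD, n = 4). Adora2b, an adenosine receptor, was low at 1.67 ± 0.330 CPM. Integrins were expressed in 13 of 26 genes, also near the protein-coding share. Per kilobase they were led by Itgb2, above Itgb1 in 4 of 4 libraries. Itgb1 averaged 519 ± 22.4 CPM and Itga5, with which it forms the fibronectin receptor, 510 ± 26.9 CPM (SD, n = 4).

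Of the immunoreceptors, Sirpa, the receptor for the CD47 signal on healthy cells, had 2502, 2444, 2406 and 2459 CPM, close in all libraries. Slamf7, a self-binding receptor, averaged 1073 ± 12.4 CPM, and Cd274, the PD-L1 ligand, 1007 ± 11.2 CPM (SD, n = 4). Lilr4b averaged 1070 ± 42.8 CPM, but it has a near-identical neighbour, so its share is uncertain. Class II antigen presentation was almost uncounted, in contrast with class I. Over the group, H2-Aa had 2 counts, H2-Ab1 1, H2-Eb1 2 and Ciita, the master activator of class II genes, 2 counts. Cd74, the class II invariant chain, averaged 3.04 ± 0.383 CPM, and the costimulatory gene Cd86 53.3 ± 1.68 CPM (SD, n = 4).

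**Figure D3:**
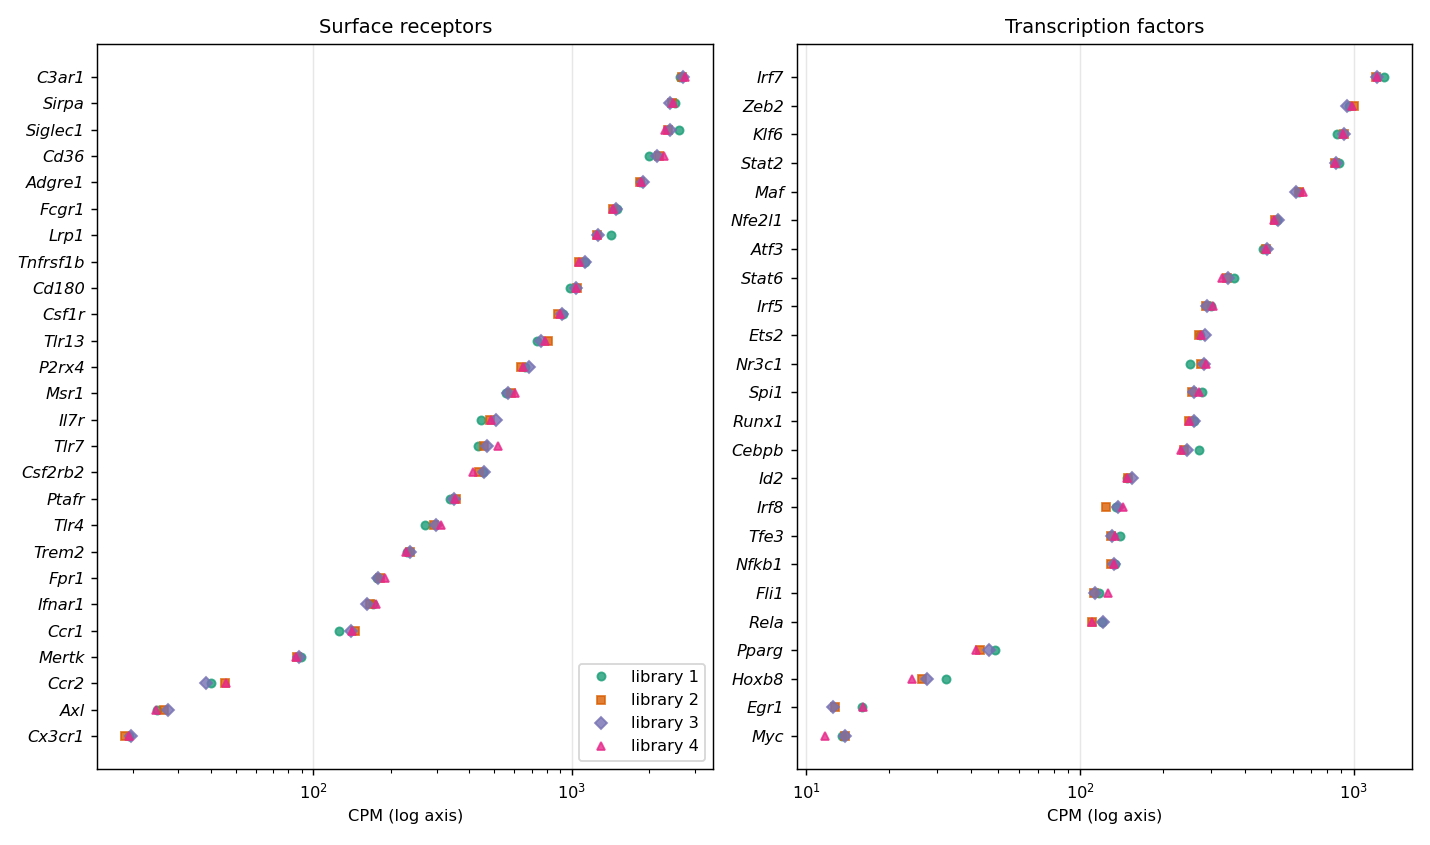
CPM (log axis) of 26 surface receptors (left) and 24 transcription factors (right), 1 row per gene and 1 marker per library. Genes run from high to low mean. The receptors span C3ar1 at 2630 to 2753 CPM down to Cx3cr1 at 18.7 to 19.7 CPM, and the factors Irf7 at 1201 to 1293 CPM down to Myc at 11.7 to 13.8 CPM.

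Among transcription factors, Spi1 led the ETS family per kilobase at 99.0 ± 3.66 CPM per kb (SD, n = 4), above Ets2 in 4 of 4 libraries. In this family 16 of 26 genes were expressed, among them Ets2 at 277 ± 6.29 CPM, Elf4 at 212 ± 7.81 CPM and Fli1 at 117 ± 6.23 CPM (SD, n = 4). The related factors Spib and Spic, of B cells and iron-recycling macrophages, averaged 0.134 and 0.544 CPM. CEBP factors work beside PU.1 in myeloid cells. Cebpb, the form of activated macrophages, had 271, 240, 246 and 234 CPM, highest in library 1, and Cebpa, the form of progenitors, had 31.0, 34.3, 31.3 and 31.3 CPM. Cebpb lay above Cebpa per kilobase in each library. Cebpe, of granulocyte maturation, averaged 0.236 CPM.

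IRF and STAT factors, which carry interferon and cytokine signals, were expressed in 13 of 16 genes. Irf7, which amplifies type I interferon, had 1293, 1201, 1218 and 1217 CPM, and per kilobase it lay above Irf5 and Irf8 in 4 of 4 libraries. Stat2, a subunit of the complex that interferon activates, had 884, 854, 864 and 855 CPM. Irf5, of inflammatory signalling, averaged 296 ± 8.84 CPM, Stat6, which acts below Il4ra, 347 ± 14.3 CPM, and Irf8, a monocyte factor, 135 ± 8.23 CPM (SD, n = 4). Irf4, of alternative activation and lymphocytes, averaged 0.857 CPM.

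Of the AP-1, MAF and CNC factors, 17 of 24 were expressed. Maf, a factor of mature macrophages, had 628, 632, 612 and 652 CPM. Atf3, a stress-induced repressor, had 467, 477, 483 and 476 CPM, tightly grouped, and lay above Fos per kilobase in each library. Fos and Jun, the classical immediate early factors, averaged 167 ± 8.93 and 169 ± 4.23 CPM, and Nfe2l2, the regulator of antioxidant genes, 165 ± 5.16 CPM (SD, n = 4). All 5 NF-kB subunit genes were expressed, with Nfkb1 at 132 ± 1.74 CPM and Rela at 116 ± 5.90 CPM.

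Kruppel-like factors were expressed in 10 of 17 genes. Klf6, an inflammatory member, had 869, 922, 919 and 910 CPM, lowest in library 1, and it lay above Spi1 per kilobase in 4 of 4 libraries. Klf2 and Klf4, quiescence and monocyte factors, averaged 12.3 ± 1.29 and 13.4 ± 1.56 CPM (SD, n = 4). Early growth response factors are induced within minutes of many stimuli. Egr1 had 15.98, 12.7, 12.5 and 16.2 CPM, Egr2 averaged 1.51 ± 0.352 CPM, and Egr3 was seen in 21 counts over the group. Their corepressor Nab1 averaged 158 ± 5.62 CPM.

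Of 32 blood progenitor factors, 13 were expressed and 12 lay under 0.1 CPM, near the shares of all protein-coding genes, 46.4% and 40.3%. Runx1, which acts from the first blood stem cells onward, averaged 255 ± 6.37 CPM and Ikzf1 148 ± 4.53 CPM (SD, n = 4). Myc, a growth factor-dependent driver of division, was counted at 13.2 ± 1.03 CPM. Myb, Gata1 and Mecom, of immature or erythroid cells, had 0 counts, Gata2 had 3 counts and Meis1 3 counts. Nuclear receptors were expressed in 20 of 49 genes, again near the protein-coding share. Nr3c1, the glucocorticoid receptor, averaged 275 ± 15.3 CPM, and the oxysterol receptors Nr1h2 and Nr1h3 averaged 76.3 ± 2.28 and 26.4 ± 4.28 CPM (SD, n = 4). Pparg, a lipid-sensing factor, averaged 45.0 ± 3.16 CPM.

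Factors that shape tissue macrophages were expressed in 18 of 22 genes. Zeb2, which maintains macrophage identity in several organs, had 959, 1004, 945 and 985 CPM, Mef2a averaged 223 ± 16.6 CPM and Mitf 157 ± 6.27 CPM (SD, n = 4). Gata6, of peritoneal macrophages, and Sall1, of microglia, had 0 counts, and Sall3 was under 0.1 CPM. Per kilobase of merged exon, Zeb2 lay below Id2, an inhibitor of DNA binding, in all libraries, and by transcript length it lay above Id2 in all, so their order is not settled.

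Interferon response genes, a list drawn up after values had been seen, were prominent. These genes are switched on by type I interferon and encode antiviral proteins. All 52 were expressed, with a median of 479 CPM, against 46.4% and 0.475 CPM over all protein-coding genes. Because members were listed with values known, this count and median describe the list and cannot serve as a test. Together these genes took 4.16%, 4.13%, 4.12% and 4.07% of counts in libraries 1 to 4. Rnf213, a giant ubiquitin ligase, had 5536, 5121, 5419 and 5174 CPM. Rsad2, which encodes viperin, had 2700, 2866, 2829 and 2837 CPM. Oas3, which makes the activator of RNase L, averaged 2024 ± 89.1 CPM, Ifit3 1153 ± 20.03 CPM, Ifitm3 614 ± 23.2 CPM and the ubiquitin-like Isg15 427 ± 28.8 CPM (SD, n = 4). The lowest of the list were Mx2 at 83.6 ± 4.87 CPM and the chemokine Cxcl10 at 61.6 ± 3.20 CPM. Of 21 interferon genes, Ifnb1 alone was expressed, with 2.31, 1.84, 2.92 and 3.10 CPM, Ifnk had 2 counts, and 19 had none. The interferon alpha genes are near-identical copies, so their zeros are uncertain.

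Promoters of the interferon response genes were searched, on either strand within the same 250 bases, for GAAA followed by any 2 bases and another GAAA, the core of the element bound by the interferon-activated complex that holds Stat2 and Irf9. The letters were present in 18 of 39 genes with a promoter entry (46.2%), against 936 of 27025 genes (3.46%), 1 of 9 macrophage markers (11.1%), 2 of 21 pattern recognition receptors (9.52%), 2 of 27 lysosomal genes and 2 of 27 immunoreceptors (7.41% each), and 0 of 27 genes of the engulfment machinery. The list holds genes picked as interferon-responsive with values known, so its share describes that choice and not these libraries. A match describes the letters only, and binding was not measured here either. TCACGTG was present in 0 of the 39 interferon response promoters, against 3.58% of all genes. The letters GAGGAAGT, of the kind bound by PU.1, were present in 755 of 27025 promoters (2.79%), in 3 of 21 pattern recognition receptors (14.3%), in 2 of 27 promoters each of lysosomal genes, immunoreceptors and engulfment genes (7.41%), and in 0 of 9 macrophage markers and 0 of 39 interferon response genes. With shares this low over all genes, 0 matches in lists of 9 to 39 promoters lies near the background and is not read as a result. Copies of the spaced GAAA pair can overlap, as in Isg15, where 3 share bases. Stretches of 120 bases, written 5′ to 3′ on the gene's strand with the letters (or their reverse complement) in capitals, are shown for 3 antiviral genes described above. They are Isg15 at chr4:156200820-156200939 (minus strand), Rsad2 at chr12:26456508-26456627 (minus strand) and Ifit3 at chr19:34583352-34583471 (plus strand) of GRCm38.p6.
Isg15: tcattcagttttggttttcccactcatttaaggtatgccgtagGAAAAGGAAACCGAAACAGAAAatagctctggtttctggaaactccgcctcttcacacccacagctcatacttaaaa
Rsad2: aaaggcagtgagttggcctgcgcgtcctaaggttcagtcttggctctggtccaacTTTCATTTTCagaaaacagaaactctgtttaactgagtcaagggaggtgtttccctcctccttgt
Ifit3: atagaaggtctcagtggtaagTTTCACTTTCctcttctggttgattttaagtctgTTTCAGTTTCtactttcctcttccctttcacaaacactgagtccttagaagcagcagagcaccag

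**Figure D4:**
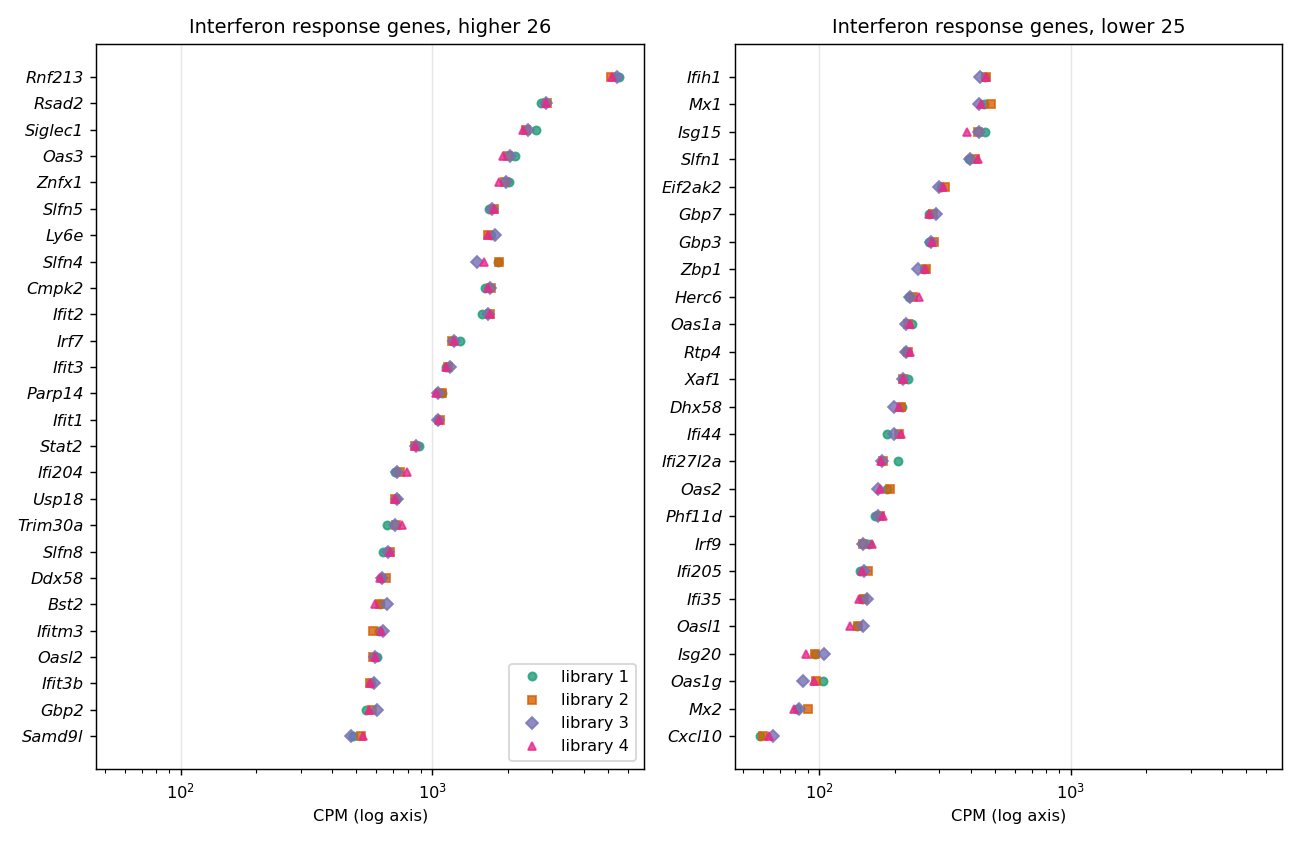
CPM (log axis) of 51 of the 52 interferon response genes in macrophages alone, 1 row per gene and 1 marker per library, ranked by mean over both panels. They run from Rnf213 at 5121 to 5536 CPM down to Cxcl10 at 58.1 to 65.3 CPM.

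Secreted products were dominated by a few genes. Spp1, osteopontin, had 1948, 1801, 1974 and 1937 CPM, and Igf1, insulin-like growth factor 1, had 787, 822, 823 and 851 CPM. The antagonist Il1rn, which blocks the interleukin-1 receptor, had 1070, 1097, 1221 and 1120 CPM, against 13.6, 12.9, 13.9 and 10.6 CPM for Il1b, and lay above Il1b per kilobase in 4 of 4 libraries. Tnf averaged 121 ± 9.67 CPM. Il10 and Il6 averaged 1.60 ± 0.154 and 1.39 ± 0.596 CPM (SD, n = 4), and Il6 was under 1 CPM in libraries 2 and 4, and Il12b had 3 counts over the group. Cytokine genes were expressed in 18 of 35, and chemokine genes in 17 of 34, both near the 46.4% of all protein-coding genes. Ccl2, Ccl7 and Ccl5, which attract monocytes and T cells, averaged 775 ± 20.4, 672 ± 11.1 and 575 ± 22.3 CPM (SD, n = 4), and the order of Ccl7 and Ccl2 per kilobase turned round between the length measures. Ccl17 and Ccl22, of alternatively activated cells, had 0 counts. The recognition subunits of complement C1, C1qb, C1qc and C1qa, averaged 570 ± 25.4, 451 ± 9.82 and 241 ± 1.34 CPM (SD, n = 4).

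Genes named for inflammatory or alternative activation were both present in part. Of 12 inflammatory genes 10 were expressed, among them Acod1, which makes itaconate, with 861, 845, 889 and 852 CPM, and Nos2, the inducible nitric oxide synthase, at 26.8 ± 2.10 CPM (SD, n = 4). Of 13 alternative activation genes 8 were expressed, and that count fell to 4 under a threshold of 2 CPM. Tgm2, transglutaminase 2, averaged 649 ± 25.8 CPM, whereas Arg1, arginase 1, averaged 1.85 ± 0.548 CPM and Retnla had 0 counts. Lipid handling genes were expressed in 21 of 22. Gpnmb, a membrane glycoprotein of lipid-laden macrophages, had 6279, 6179, 6441 and 6140 CPM. The cholesterol exporters Abca1 and Abcg1 averaged 844 ± 10.7 and 1048 ± 18.6 CPM, lipoprotein lipase (Lpl) 1501 ± 53.9 CPM and the lipid droplet gene Plin2 1455 ± 18.2 CPM, against 30.4 ± 2.05 CPM for Apoe (SD, n = 4).

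Factors of polymerase pausing, the subject named in the series title, were expressed in 27 of 28 genes. Paused polymerase is held by the NELF complex and released by the kinase Cdk9. Polr2a, the largest polymerase subunit, had 458, 418, 460 and 440 CPM, and Cdk9 had 93.0, 80.3, 83.0 and 76.8 CPM. The NELF subunits Nelfb, Nelfcd, Nelfe and Nelfa averaged 62.0 ± 2.05, 32.3 ± 0.633, 30.05 ± 2.71 and 23.7 ± 1.12 CPM (SD, n = 4). Ell2, of the elongation complex, averaged 644 ± 31.5 CPM, Brd2, a reader of acetylated histones, 547 ± 8.62 CPM, and Hexim1, an inhibitor of Cdk9, 103 ± 3.85 CPM. Ell3 had 0 counts. Solute carriers were expressed in 17 of 18 genes, with the taurine transporter Slc6a6 at 1379 ± 25.3 CPM and the glucose transporter Slc2a1 at 104 ± 6.51 CPM (SD, n = 4).

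Cell cycle genes were expressed in 30 of 34, but those of mitosis were low. Cdkn1a, the p21 inhibitor of division, had 308, 292, 297 and 293 CPM. Pcna, of DNA replication and repair, averaged 179 ± 8.75 CPM and the G1 cyclin Ccnd1 118 ± 2.42 CPM (SD, n = 4). Mki67, a marker of dividing cells, had 14.7, 14.7, 14.04 and 14.2 CPM, the mitotic cyclin Ccnb1 averaged 2.32 ± 0.334 CPM, and Birc5 averaged 0.923 ± 0.317 CPM. Per kilobase, Cdkn1a lay above Pcna in 4 of 4 libraries.

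Markers of other lineages were mostly uncounted. None of 10 NK cell, 12 dendritic cell, 10 mast cell and basophil, 10 erythroid, 8 epithelial, 8 muscle, 8 neuron or 7 hepatocyte markers was expressed. For NK cells, 9 of 10 markers had 0 counts in all libraries, and the summed level of the list was 0, 0, 0 and 0.0535 CPM. For T cells the defining Cd3d, Cd3e and Cd3g, with Cd8a and Cd8b1, had 0 counts. Cd28, a costimulatory receptor, was expressed at 11.6, 11.6, 12.2 and 14.1 CPM and was the 1 expressed member of 14, and Cd4 averaged 1.11 ± 0.352 CPM (SD, n = 4) but was under 1 CPM in library 4. For B cells, Cd79a had 0 counts, whereas Cd22, an inhibitory lectin, averaged 26.8 ± 2.02 CPM and Ighm 1.67 ± 0.677 CPM (SD, n = 4).

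**Figure D5:**
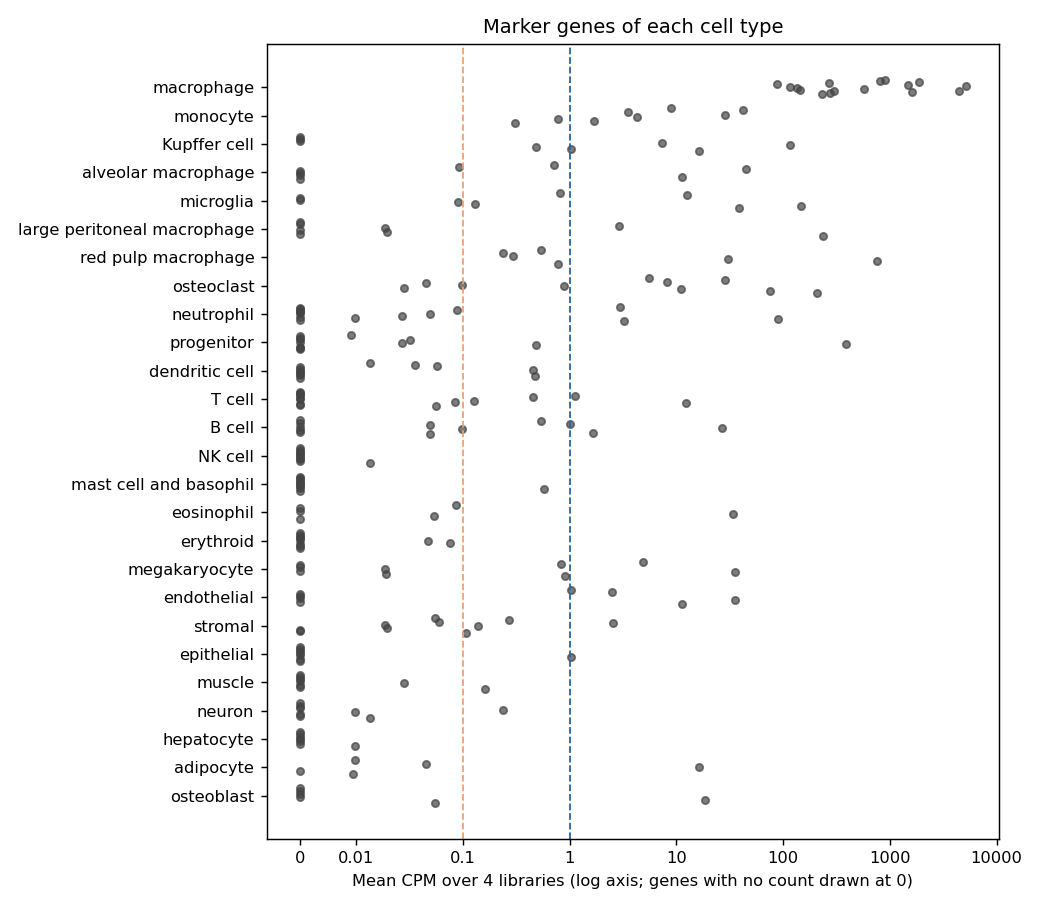
Mean CPM over the 4 libraries (log axis, with genes of no count placed at 0 on the left) for the markers of 26 cell types, 1 point per gene. Dashed lines stand at 0.1 and 1 CPM. The 16 macrophage markers start at 87.6 CPM for Mertk, and most markers of other lineages lie left of 1 CPM, with exceptions such as Ly6a, Csf3r, Vwf, Flt1, Ccr3 and Cd22.

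Granulocyte and progenitor genes were close to silent with named exceptions. Of 14 neutrophil markers 3 were expressed, Csf3r, S100a8 at 2.97 ± 0.563 CPM and the collagenase Mmp8 at 3.25 ± 0.549 CPM (SD, n = 4), and 8 stayed under 0.1 CPM. S100a9, Ly6g and Elane had 0 counts. Of 12 progenitor markers only Ly6a, which encodes Sca-1, was expressed, at 379, 388, 407 and 390 CPM, and Cd34 had 1 count over the group, a two-sided exact Poisson 95% interval of 0.000257 to 0.0565 CPM. Of 8 monocyte markers 6 were expressed, including Plac8 at 28.6 ± 1.77 CPM and Ly6c2 at 8.88 ± 0.830 CPM (SD, n = 4). Ly6c2 has a near-identical neighbour, so its share is uncertain. Vwf, the von Willebrand factor gene of endothelium and megakaryocytes, was counted at 38.1, 34.0, 35.9 and 34.6 CPM. Of 8 endothelial markers 3 were expressed, Vwf, Flt1 and Kdr, against 46.4% of all protein-coding genes. From counts summed over the group, Flt1 stood at 11.3 CPM, Kdr at 2.45 CPM and Cdh5 at 0.973 CPM. The endothelial Tek, Tie1, Cldn5 and Emcn had 0 counts. Runx2, of bone-forming cells, averaged 18.4 CPM, while the osteoblast genes Sp7, Bglap, Ibsp and Alpl had 0 counts. Fabp4, a fatty acid binder shared by adipocytes and macrophages, averaged 16.4 ± 1.07 CPM. What share of these values came from other cells was not tested.

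Signatures of tissue macrophages were incomplete. Kupffer cell markers were expressed in 3 of 8, with Marco at 116 CPM and Clec4f, Vsig4 and Timd4 at 0 counts. Among microglial markers 3 of 8 were expressed, with Tmem119 at 12.4 ± 1.54 CPM (SD, n = 4), whereas P2ry12 averaged 0.813 CPM. Alveolar markers were expressed in 2 of 8 and large peritoneal markers in 2 of 8, the peritoneal ones led by the acute phase gene Saa3 at 234 ± 6.94 CPM. Osteoclast markers were expressed in 6 of 10, with the RANK receptor Tnfrsf11a at 210 CPM and cathepsin K (Ctsk) at 28.5 CPM, while Calcr, the calcitonin receptor, had 4 counts over the group and Oscar 3 counts.

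A zero in this table is not proof of absence for every gene. Of the 13 mitochondrial coding genes, which every respiring cell uses, mt-Co1 averaged 1652 CPM, but mt-Co2 had 4 counts over the group, mt-Atp6 2 counts, and mt-Nd3 and mt-Nd4l none. Among 80 ribosomal protein genes 76 were expressed with a median of 99.2 CPM, yet Rpl24 averaged 0.570 CPM. All 18 housekeeping genes were expressed, from Aldoa at 968 CPM to Tbp at 22.2 CPM. That list was added after values had been seen, so it cannot test how reliable the zeros are. How reads shared with pseudogenes or nuclear copies were counted is not given in the sources used here, and its part in these low values was not tested.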

How the data were processed

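RNA was measured in 16 libraries, of which the 4 of macrophages alone were used. Per the labels' protocols, column-purified total RNA underwent ribosomal RNA depletion before a strand-marking (directional) library kit. Raw counts, not normalized, are what the authors deposited, in a single gene table. The submitters' processing notes name STAR 2.7.9a, SAMtools, HTSeq and the mm39 build. For strand setting, annotation release and reads shared between genes, the handling was not given in the sources used here.

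Column headers give the group but no replicate number, so libraries 1 to 4 are named in file order. The gene table listed 55416 IDs, 21745 with a count in these libraries. Symbols (52135 IDs) and lengths came from GENCODE M21 and promoters from RefSeq GRCm38.p6. Both describe the build before mm39, so no gene coordinates from the counts are printed. IDs without a symbol held 0.225% of counts.

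CPM is the count per 1000000 counts of the library. Genes were called expressed at 1 CPM in every library and undetected under 0.1 CPM in every library. CPM per kb divides by merged exon length. Spread was estimated with edgeR 4.0.16 (R 4.3.3) from an intercept-only fit with trimmed-mean scaling, on 12327 genes, and the same script was tested on simulated data. Library pairs differed beyond sampling noise (chi-square per degree of freedom 3.84 to 6.58). Each library was counted as 1 replicate, although such spread cannot show whether they came from separate cultures. No comparison was tested, since 1 condition is described. SDs are over 4 libraries, and intervals and the 3-count limit cover counting error only. DESeq2 1.42.0 gave alternative size factors.

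The 63 lists held 983 genes, all matched. Members and lists were chosen with earlier results of these data known, and the interferon response, interferon, housekeeping, mitochondrial and ribosomal protein lists were added after values were seen. Genes named were the 30 highest by CPM and by CPM per kb, 10 noncoding genes, up to 8 members per list with the highest CPM per kb, members under 0.1 CPM, lineage markers with counts, and the 10 genes with the widest library ratio. Other list members were named as examples of their family. Some genes that this rule would name are not reported here.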

Additional observations from a re-analysis of the deposited data

Results flagged for a closer look

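Of 83 summed values tested for a library standing apart, 1 was so: the summed level of the Kruppel-like factors was 1378 CPM in library 1, against 1410 to 1413 CPM in the other 3 libraries. Chance alone gives such a gap in about 1 of 20 groups. Klf6, which supplies most of that sum, had 869 CPM in library 1 and 910 to 922 CPM in the others. The cause was not tested.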

How the results depend on the processing

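The number of expressed genes, 11111, ran from 10211 at a threshold of 2 CPM to 11988 at 0.5 CPM, and from 11183 to 11220 when any 1 library was left out. Trimmed-mean scaling left it at 11111 and thinning every library to the smallest total gave 11090. The 551 expressed members of the 63 lists ran from 525 to 582 over these thresholds, and from 553 to 555 with a library left out. The share of counts in the 100 most abundant genes fell to 23.5% among protein-coding genes alone and to 24.1% with mitochondrially encoded genes removed from the totals, against 27.1% as reported. Leaving out a library gave 27.1% to 27.2%. Interferon response genes took 4.31% of counts with mitochondrially encoded genes removed, an alternative added after the data had been seen, against 4.12%, and 4.11% to 4.14% with a library left out. The coefficient of variation between libraries was 5.20% without library 1 and up to 6.66% without another, 6.51% with no filter, and 6.25% with DESeq2 size factors. Counts within single lists moved by over 1.5 times for HOX, B cell, alternative activation and interferon genes at 2 CPM, which left 2, 1, 4 and 0 expressed. T cell markers gave 2 at 0.5 CPM, by mean level or without library 4, and epithelial markers gave 1 by mean level. No paired analysis was possible because 1 condition is described. Depth limits statements on genes under about 0.1 CPM, where 3 counts in the smallest library already make 0.161 CPM.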

Other observations

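Xist, the noncoding RNA of the inactive X chromosome, was counted at 1080, 1162, 1088 and 1179 CPM in libraries 1 to 4. The Y-linked genes Ddx3y, Eif2s3y and Uty had 0 counts and Kdm5d 1 count over the group. Of 175 Y-linked protein-coding genes, however, 1 other than those named was expressed, so the Y chromosome was not wholly uncounted. The source of its counts was not tested. Other abundant noncoding genes were Gm8995 at 1563 ± 45.1 CPM, Gm1966 at 541 CPM and Neat1, the scaffold of paraspeckles, at 392 CPM.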
